A study of Mus musculus with 6 samples.

Results

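The semaphorins, their plexin receptors and the neuropilin co-receptors were examined in the mouse sciatic nerve, a large mixed nerve of motor and sensory axons. Members were taken by gene symbol alone: every semaphorin of classes 3 to 7, every plexin of types A to D and both neuropilins with any read. This gave 31 genes of 24421 in the count tables, 20 semaphorins, 9 plexins and 2 neuropilins. Total RNA was sequenced in 3 libraries whose genotype label reads YAP/TAZ-DBL-cKO (called cKO here) and in 3 labelled YAP/TAZ-WT (called WT), and the series' design text counts them as separate mice. Yap1 and Wwtr1 encode YAP and TAZ, the transcriptional co-activators that the Hippo pathway restrains. Age, sex, strain, alleles, the promoter behind the deletion, the cells in which it acts and whether nerves were pooled were not given in the sources used here.

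Semaphorins are guidance proteins that share a large sema domain. Class 3 members are secreted, classes 4 to 6 span the membrane, and class 7 is held at the surface by a lipid anchor. They signal through plexins, which act on small GTPases inside the cell, and most class 3 semaphorins first bind a neuropilin that joins a plexin A. In peripheral nerve the family is known for steering axons, for communication between Schwann cells, fibroblasts and vessels, and for responses to nerve injury.

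Gene counts per library ranged from 24651262 to 47044158, and every WT library was deeper than every cKO library. Levels are given as CPM, counts scaled to library size with TMM factors, which equalise the bulk of genes between libraries. Yap1 ranged from 102.5 to 108.8 CPM in cKO and from 120.3 to 123.7 CPM in WT, a difference that was not called (log2 fold change -0.20 ± 0.08 SE, edgeR adjusted p = 0.145). Wwtr1 was called higher in cKO (log2 0.40 ± 0.09, edgeR adjusted p = 0.0208), and that call needed each of cKO 3, WT 1 and WT 2. Whole-gene counts of a mixed tissue cannot check a deletion that may be partial or limited to some cells, so each direction rests on the labels. Each library held reads of Xist (133.9 to 257.9 CPM) and of the Y-linked Ddx3y (8.92 to 47.9 CPM), and the labels do not say whether a library holds more than 1 animal. Sox10, which defines the Schwann cells of the nerve, was present in every library at 404.4 to 571.0 CPM. Of 14 Schwann cell markers 7 were lower and 0 higher in cKO, and their summed level was 21530 to 34100 CPM in cKO and 79540 to 111800 CPM in WT. Of 16 skeletal muscle markers 15 were higher in cKO, with sums of 5101 to 10640 CPM against 509.6 to 1915 CPM. The part that these shifts play in any result given here was not tested.

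The family's RNA changed in a few members, most of them transmembrane or anchored ligands. All 31 members passed the filter on low counts, and 8 were called changed: Sema5a, Sema6d, Sema6c, Sema4g, Sema7a, Plxnb1 and Nrp2 fell, and Sema3g rose (edgeR quasi-likelihood test, Benjamini-Hochberg adjusted p under 0.05). That is 25.8% of members, beside 10.9% of all 14789 genes tested. For lower calls it is 7 of 31 beside 6.17%, and for higher calls 1 of 31 beside 4.77%, which is near the background. The median log2 fold change was 0.03 over the members and 0.02 over all genes. The cKO and WT libraries did not overlap for 15 members, 7 with cKO below and 8 with cKO above, and for 31.1% of all genes. Among the called members 3 fell and 1 rose by at least 2-fold. In whole nerve, fewer cells of a type and less RNA per cell cannot be told apart.

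Of these calls, 4 of the 7 lower ones and 0 of the higher ones stood without cKO 3: Sema5a, Sema6c, Sema6d and Nrp2. With total counts in place of TMM factors the members divided into 6 lower and 4 higher, and with DESeq2 into 7 lower and 4 higher. Over all genes, total counts gave 606 lower and 1273 higher calls, and DESeq2 gave 1246 and 1008. The main fit gave 912 lower and 706 higher calls over all genes. With the muscle level as a covariate 1 member was called, Sema5a. The summed muscle markers did not overlap between the groups (5101 to 10640 CPM in cKO and 509.6 to 1915 CPM in WT). That fit can therefore hardly separate group from muscle level. A call lost in it, here and below, cannot decide between the 2.

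**Figure D1:**
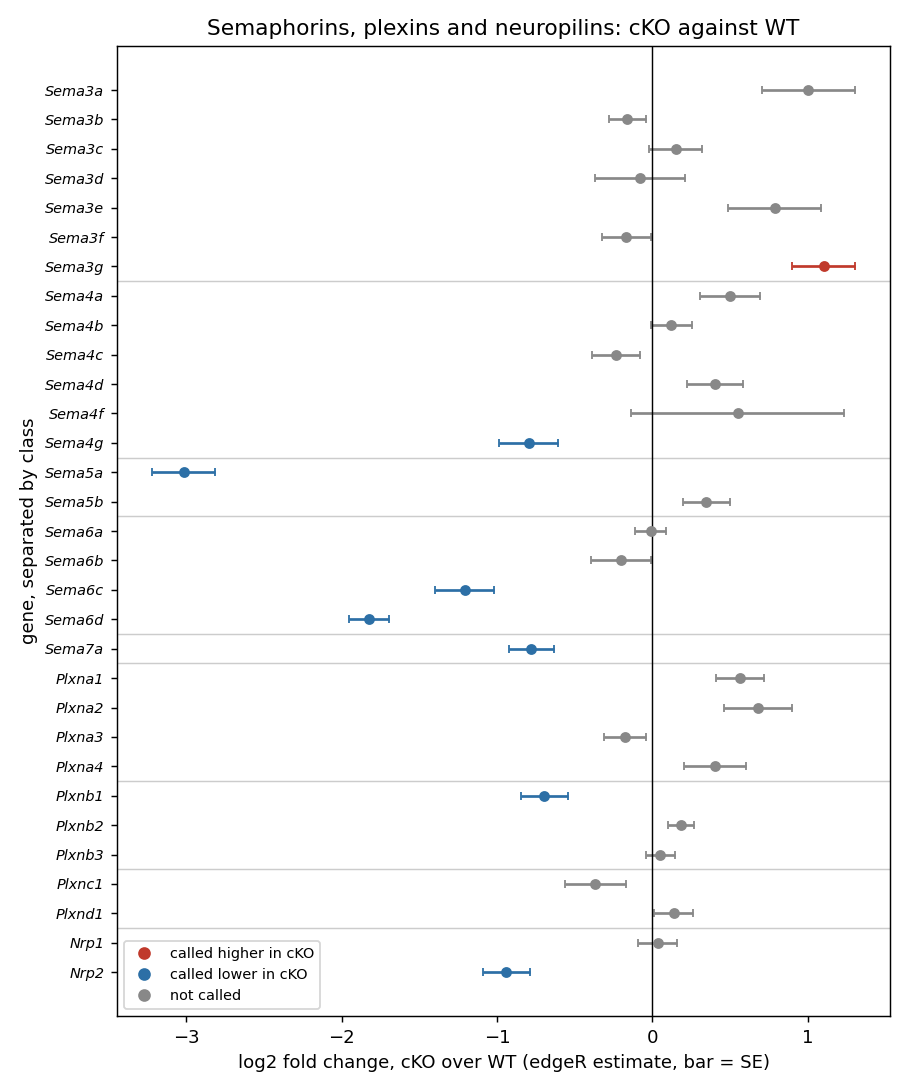
Log2 fold change of each of the 31 members, cKO over WT, from the edgeR fit (points, with bars for the SE, 3 libraries per group), separated by class. Blue points are called lower (7), the red point is called higher (Sema3g) and grey points are not called. Sema5a and Sema6d lie farthest to the left, at -3.02 and -1.83.

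The start regions of 4 called genes are shown: the 2 with the largest falls, Sema5a and Sema6d, the single gene that rose, Sema3g, and Plxnb1, chosen because its window alone among the called members holds the motif marked here. The bases come from RefSeq's promoter table for GRCm38.p6, the assembly that mm10 names, and each run holds up to 250 bases before the RefSeq start, ended where the GENCODE gene model begins. All 4 are on the plus strand, at chr15:32244563-32244809 for Sema5a, chr2:124089719-124089968 for the upstream of 2 Sema6d starts, chr9:109095186-109095388 for Plxnb1 and chr14:31217623-31217859 for Sema3g. Capitals mark GGAATG, the core motif bound by TEAD factors, the DNA-binding partners of YAP and TAZ.
Sema5a: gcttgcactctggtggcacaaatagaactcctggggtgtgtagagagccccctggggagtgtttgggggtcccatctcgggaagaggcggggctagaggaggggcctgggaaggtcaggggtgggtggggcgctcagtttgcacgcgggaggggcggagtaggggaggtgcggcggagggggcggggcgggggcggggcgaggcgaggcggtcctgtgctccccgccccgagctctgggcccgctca
Sema6d: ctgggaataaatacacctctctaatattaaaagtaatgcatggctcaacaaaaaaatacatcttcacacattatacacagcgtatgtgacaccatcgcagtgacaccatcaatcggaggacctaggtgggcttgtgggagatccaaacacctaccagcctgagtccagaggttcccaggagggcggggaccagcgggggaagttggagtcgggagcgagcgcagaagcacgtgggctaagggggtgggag
Plxnb1: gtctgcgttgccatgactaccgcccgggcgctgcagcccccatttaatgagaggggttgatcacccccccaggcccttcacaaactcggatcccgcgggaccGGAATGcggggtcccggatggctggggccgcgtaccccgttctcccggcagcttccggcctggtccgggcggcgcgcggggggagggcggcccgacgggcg
Sema3g: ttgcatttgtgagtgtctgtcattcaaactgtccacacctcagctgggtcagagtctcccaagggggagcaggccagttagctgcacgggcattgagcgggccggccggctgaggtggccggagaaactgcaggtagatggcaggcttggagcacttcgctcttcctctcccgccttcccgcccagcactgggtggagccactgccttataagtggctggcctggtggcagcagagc
The motif was searched on both strands (GGAATG or CATTCC), with no overlap between matches in these windows. It lies in 3 of the 26 members with a window in the table, Plxnb1, Plxnd1 and Sema4a, and in 1 of the 8 called members, Plxnb1, where it starts 148 bases before the RefSeq start. By gene that is 11.5% of the members with a window, beside 14.4% of all 27025 genes with one. Of all 32851 windows 12.6% hold it, and of the 37 member windows 8.11%. The absence of these letters from the other windows says nothing about sites elsewhere. The Sema5a and Plxnb1 windows are rich in G and C, at 72.0% and 75.2% of 250 bases, while the Sema6d window holds 52.4% and the Sema3g window 60.4%.

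Sema5a showed the largest change of the family. It encodes a transmembrane semaphorin with thrombospondin repeats, for which Plxnb3 is a known receptor, and its gene lies on chromosome 15 (mm10, 32244810 to 32696341, plus strand). Its level was 225.0, 315.1 and 380.6 CPM in WT 1, 2 and 3 and 31.1, 42.6 and 40.1 CPM in cKO 1, 2 and 3. The lowest WT library stood far above the highest cKO library. The fall was 8.10-fold (log2 -3.02 ± 0.20 SE, n = 3 per group, edgeR adjusted p = 0.000181), and the call held in all 15 alternative fits, with log2 values between -3.23 and -2.86. Its class mate Sema5b, on chromosome 16, had 32.7, 32.3 and 23.8 CPM in WT and 39.9, 41.3 and 31.8 CPM in cKO. These ranges overlapped and Sema5b was not called (log2 0.35 ± 0.15). Per kb of exon, Sema5a exceeded Sema5b 2.60 to 6.06 times in the WT libraries and reached 0.295 to 0.478 of its level in the cKO libraries.

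Of the 4 class 6 semaphorins, transmembrane ligands of plexins A, 2 fell and 0 rose. Sema6d (chromosome 2, 124089969 to 124667770, plus strand), a ligand of Plxna1, was at 419.7, 524.2 and 473.1 CPM in WT and at 118.4, 154.4 and 127.2 CPM in cKO. The groups lay well apart, with a fall of 3.54-fold (log2 -1.83 ± 0.13, edgeR adjusted p = 0.000192). Sema6c (chromosome 3, 95160457 to 95174024, plus strand) was at 117.0, 105.4 and 111.4 CPM in WT and at 34.4, 63.9 and 46.4 CPM in cKO. All WT libraries were above all cKO libraries, and the cKO libraries spread widely. Sema6c fell 2.31-fold (log2 -1.21 ± 0.19, edgeR adjusted p = 0.00502). Both genes were called in each fit that left out 1 library and lost their call with the muscle level as a covariate (edgeR adjusted p = 0.0705 for Sema6d and 0.106 for Sema6c), where their log2 values were -1.73 and -1.81. Sema6a, a ligand of Plxna2 and Plxna4, stayed between 38.5 and 47.0 CPM in all 6 libraries (log2 -0.01 ± 0.10, above 0 with upper-quartile factors, with total counts and without cKO 1). Sema6b was low, at 8.11 to 13.3 CPM over both groups, and was not called (log2 -0.20 ± 0.19). Sema6d stood at 8.35 to 9.78 times the per-kb level of Sema6a in WT and 2.36 to 2.73 times in cKO.

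Sema7a (chromosome 9, 57940112 to 57962865, plus strand), the lipid-anchored member, binds Plxnc1 and integrin beta 1. It was at 45.4, 46.0 and 40.0 CPM in WT and at 20.9, 31.2 and 24.6 CPM in cKO. The groups did not overlap. The fall was 1.72-fold (log2 -0.78 ± 0.15, edgeR adjusted p = 0.0108), and its call was lost without cKO 3 (edgeR adjusted p = 0.0563) and with the muscle covariate (log2 -0.97, edgeR adjusted p = 0.417). Its receptor Plxnc1 was at 11.6, 8.55 and 14.4 CPM in WT and 8.77, 8.33 and 9.73 CPM in cKO, with overlapping ranges and no call (log2 -0.37 ± 0.20). Itgb1, the integrin subunit, averaged 894.4 ± 23.3 CPM over the WT libraries and 884.6 ± 66.0 over the cKO libraries (SD, n = 3) and was not called.

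Of the 6 class 4 semaphorins, transmembrane ligands of plexins B, 1 fell and 0 rose. Sema4g (chromosome 19, 44989101 to 45003397, plus strand), which binds Plxnb2, was at 117.0, 106.8 and 96.5 CPM in WT and at 43.7, 80.3 and 60.8 CPM in cKO. The groups did not overlap, but cKO 2 came close to WT 3. The fall of 1.74-fold (log2 -0.80 ± 0.19, edgeR adjusted p = 0.0292) lost its call with total counts (edgeR adjusted p = 0.0564), with the muscle covariate (0.344, at log2 -1.27) and without cKO 3 (0.112), WT 1 (0.0664) or WT 2 (0.0749). Sema4c, also a ligand of Plxnb2, had the highest level of the class per kb, 24.9 ± 2.41 CPM per kb in WT and 21.2 ± 4.62 in cKO (SD, n = 3), and was not called (log2 -0.23 ± 0.15). Sema4d, the classical ligand of Plxnb1, was at 9.06, 8.82 and 7.76 CPM in WT and 9.19, 14.0 and 10.8 CPM in cKO. All cKO libraries were above WT by a small margin at cKO 1, and the difference was not called (log2 0.41 ± 0.18). Sema4a (log2 0.50 ± 0.19), which has roles in immune cells, and Sema4b (log2 0.12 ± 0.13) were not called, and Sema4f had 4 to 25 reads per library and was not called (log2 0.55 ± 0.69).

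**Figure D2:**
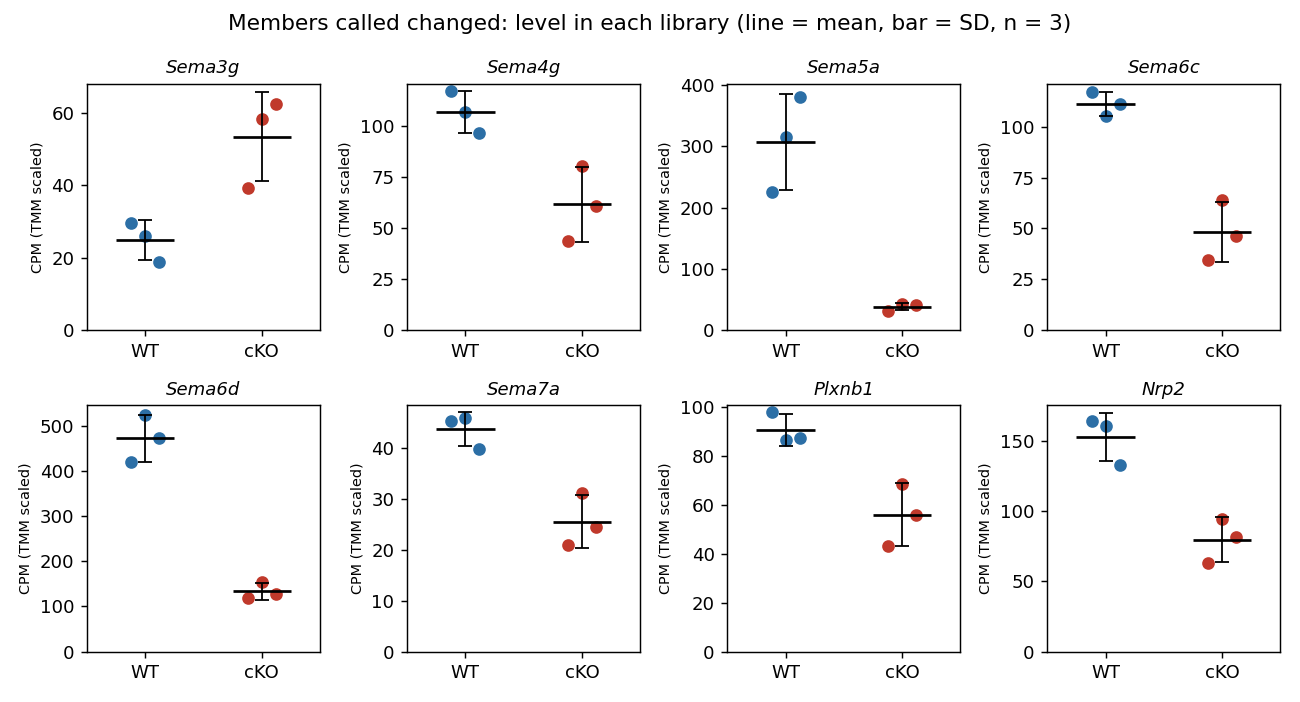
Level of each called member in each library, in CPM scaled by TMM factors on a linear axis from 0, with WT in blue and cKO in red. Lines are means and bars SDs of 3 libraries; in each panel the WT and cKO points do not overlap, and Sema3g is the only panel with cKO above WT.

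The secreted class 3 was the one class with a higher call. Sema3g (chromosome 14, 31217860 to 31230352, plus strand), a ligand of Nrp2 known from vascular endothelium, was at 29.6, 26.1 and 18.9 CPM in WT and at 39.3, 58.4 and 62.4 CPM in cKO. Every cKO library was above every WT library, with cKO 1 the lowest of its group. The rise was 2.15-fold (log2 1.10 ± 0.20, edgeR adjusted p = 0.0102). It was not called without cKO 3 (edgeR adjusted p = 0.0539) or with the muscle covariate (log2 0.88, edgeR adjusted p = 0.695). Of 10 endothelial markers 0 were called by edgeR, limma-voom or DESeq2 and 2 were higher at an unadjusted edgeR p under 0.05, with summed levels of 497.7 to 578.6 CPM in cKO and 370.0 to 570.2 CPM in WT and a median log2 fold change of 0.31. Sema3b was the most abundant semaphorin of the nerve on every scale used, at 606.5, 562.1 and 651.3 CPM in WT and 471.1, 616.6 and 540.1 CPM in cKO, with overlapping groups and no call (log2 -0.16 ± 0.12). Sema3c, which binds neuropilins and Plxnd1, followed in its class at 76.3 to 112.4 CPM in WT and 80.9 to 113.2 CPM in cKO (log2 0.15 ± 0.17).

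Sema3a, the axon repellent that binds Nrp1, was scarce, with 40 to 59 reads per WT library and 55 to 96 per cKO library. It was at 1.21, 0.9997 and 1.49 CPM in WT and 2.26, 2.14 and 3.01 CPM in cKO, without overlap and without a call (log2 1.004 ± 0.30, edgeR adjusted p = 0.0663), and it was called with total counts and by DESeq2 (adjusted p = 0.0377 and 0.0315). Sema3e, which binds Plxnd1 directly, was at 1.71, 3.07 and 2.72 CPM in WT and 4.28, 3.19 and 5.43 CPM in cKO (log2 0.79 ± 0.30, not called). Sema3d (13.3 to 31.3 CPM over the 6 libraries) and Sema3f (9.48 to 13.2 CPM), a ligand of Nrp2, were not called, and the sign of Sema3d turned in 5 of 15 alternative fits.

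Summed over all 20 semaphorins, ligand RNA was 1910, 2016 and 2144 CPM in WT and 1097, 1419 and 1261 CPM in cKO. Sema5a and Sema6d together went from 779.2 to 171.2 CPM between the group means, which is 79.5% of the net difference in the semaphorin sum. The 2 were singled out because they fell most, so a high share follows in part from that choice. CPM also gives long genes more weight, and the exons of Sema5a span 18.686 kb, beside 4.777 kb for Sema3b. The other semaphorins together were at 1265, 1177 and 1290 CPM in WT and 948.0, 1222 and 1093 CPM in cKO, ranges that overlap. By class, sums without overlap were found for class 5 (257.8 to 404.4 CPM in WT and 70.9 to 83.9 in cKO), class 6 (591.9 to 687.4 and 199.3 to 277.1) and class 7, which is Sema7a alone. The class 3 sums overlapped (693.1 to 829.7 CPM in WT and 659.3 to 790.4 in cKO), as did those of class 4 (230.2 to 269.5 and 147.0 to 236.4). No test was made on these sums, since the members were chosen with results known.

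Within each library, shares of the summed CPM per kb do not depend on how libraries are scaled. Sema3b made up 40.6% to 44.2% of semaphorin RNA in WT and 51.0% to 51.6% in cKO. Sema6d was the next in WT, at 13.6% to 17.1%, and held 5.43% to 5.87% in cKO, below Sema4c with 8.66% to 10.3% there. Sema5a went from between 4.12% and 6.60% in WT to between 0.870% and 0.968% in cKO, while Sema3g went from between 1.35% and 2.23% to between 4.54% and 6.20%. The secreted class as a whole held 47.7% to 52.7% in WT and 63.1% to 67.0% in cKO. Its larger share in cKO was one of a smaller total. After scaling, all semaphorins summed to 289.9 to 308.4 CPM per kb in WT and 191.0 to 250.5 in cKO. The class 3 sums overlapped, at 138.2 to 162.5 CPM per kb in WT and 127.9 to 158.1 in cKO.

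**Figure D3:**
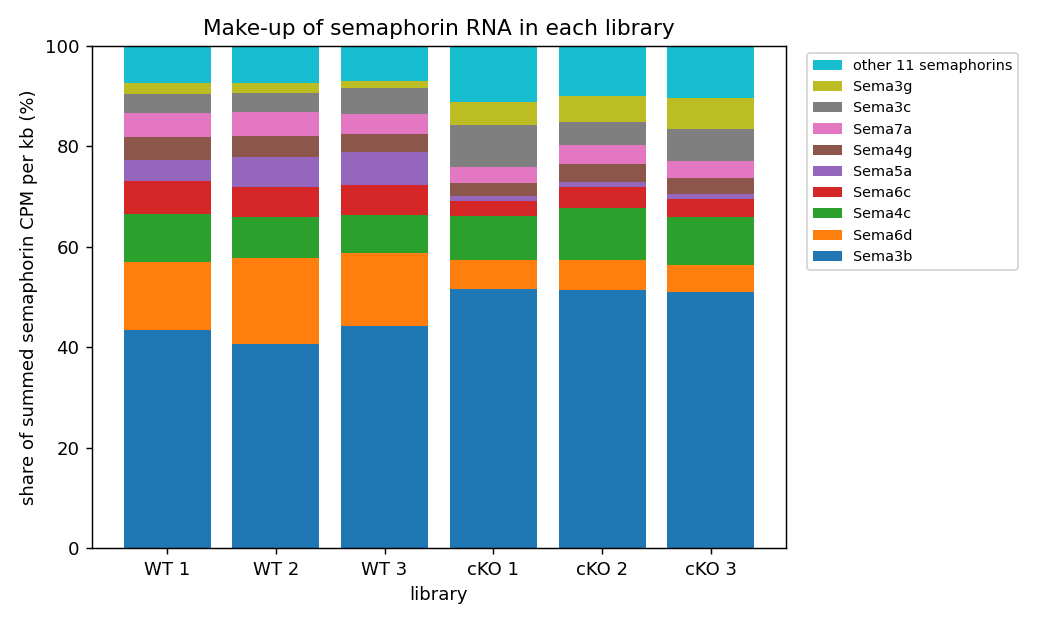
Share of each semaphorin in the summed semaphorin CPM per kb of exon (y axis, percent) for the 6 libraries (x axis). Sema3b is the largest band in every library, and the bands of Sema6d and Sema5a are narrower in the 3 cKO libraries (5.43% to 5.87% and 0.870% to 0.968%) than in the 3 WT libraries.

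Among the 11 receptor genes 2 fell and 0 rose by edgeR (DESeq2 called 2 higher, Plxna1 and Plxna2), and the summed level of receptors overlapped between groups (951.1 to 1043 CPM in WT and 860.0 to 1044 CPM in cKO). By edgeR 18.2% of receptors were called, beside 10.9% of all genes tested. For the plexins alone it was 11.1%, near that background. Nrp2 (chromosome 1, 62703285 to 62818695, plus strand), the co-receptor for Sema3f, Sema3g and some VEGF forms, was at 164.6, 160.9 and 133.0 CPM in WT and at 62.9, 94.7 and 81.7 CPM in cKO. The groups did not overlap, and the fall was 1.92-fold (log2 -0.94 ± 0.15, edgeR adjusted p = 0.00555). Nrp2 was called whichever library was left out, but not with the muscle covariate (log2 -1.14, edgeR adjusted p = 0.289). Nrp1, the co-receptor for Sema3a and VEGF-A, was at 127.3, 125.6 and 171.5 CPM in WT and 145.8, 137.3 and 151.5 CPM in cKO. These ranges overlapped, and Nrp1 was not called (log2 0.03 ± 0.13, below 0 without cKO 3, WT 1 or WT 2 and with the muscle covariate). The per-kb ratio of Nrp1 to Nrp2 was 0.936, 0.945 and 1.56 in WT 1, 2 and 3 and 2.80, 1.75 and 2.25 in cKO 1, 2 and 3.

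Plxnb1 (chromosome 9, 109095389 to 109119917, plus strand), a receptor for Sema4d that acts on RhoA, was at 97.8, 86.3 and 87.2 CPM in WT and at 43.1, 68.6 and 56.0 CPM in cKO. The groups did not overlap. The fall was 1.62-fold (log2 -0.70 ± 0.15, edgeR adjusted p = 0.0206). It was not called without cKO 3 (edgeR adjusted p = 0.0846) or with the muscle covariate (log2 -1.17, edgeR adjusted p = 0.207). Neither relative was called. Plxnb2 was at 108.5, 94.1 and 102.2 CPM in WT and 113.6, 119.6 and 113.0 CPM in cKO (log2 0.18 ± 0.09, below 0 with the muscle covariate). Plxnb3 was at 154.6 to 181.7 CPM in WT and 170.3 to 184.1 CPM in cKO (log2 0.05 ± 0.09, below 0 without WT 3). Per kb, Plxnb2 exceeded Plxnb1 1.35 to 1.46 times in WT and 2.17 to 3.27 times in cKO.

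Of the 4 plexins A, 0 were called by edgeR or limma-voom, 2 were higher at an unadjusted edgeR p under 0.05, and DESeq2 called 2 higher. Plxna1, the receptor for Sema6d and a partner of neuropilins, was nearest, at 96.7, 82.3 and 74.7 CPM in WT and 97.6, 146.3 and 130.9 CPM in cKO. The highest WT and the lowest cKO library were almost level, and the difference was not called (log2 0.56 ± 0.16, edgeR adjusted p = 0.0502). It was called higher in 8 of 15 alternative fits, among them DESeq2 (adjusted p = 0.00705) and edgeR without cKO 1 (adjusted p = 0.0137). The per-kb ratio of Sema6d to Plxna1 was 3.72, 5.46 and 5.43 in WT and 1.04, 0.905 and 0.833 in cKO 1, 2 and 3. Plxna2 was low, at 4.65 to 6.58 CPM in WT and 6.72 to 10.3 CPM in cKO (log2 0.68 ± 0.22, not called, called by DESeq2, with total counts and without WT 3). Plxna3 (log2 -0.17 ± 0.14) and Plxna4 (log2 0.40 ± 0.20, below 0 with the muscle covariate) were not called. Plxnd1, the receptor of Sema3e and best known from vessels, was at 210.8, 193.3 and 173.2 CPM in WT and 176.8, 236.2 and 221.9 CPM in cKO, with overlapping groups (log2 0.14 ± 0.13, below 0 with the muscle covariate).

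In WT the order of receptors per kb of exon began with Plxnb3 (26.5 ± 2.33 CPM per kb, SD, n = 3) and Plxnd1 (26.4 ± 2.58), which did not differ beyond their spread. Nrp1 (14.5 ± 2.66), Plxnb2 (13.2 ± 0.938) and Nrp2 (12.9 ± 1.46) followed at one level within their spread, then Plxnb1 (9.43 ± 0.663) and Plxna1 (9.34 ± 1.24), again within their spread. In cKO Nrp2 (6.74 ± 1.35) and Plxnb1 (5.83 ± 1.33) stood below Plxna1 (13.8 ± 2.75). Plxnc1, Plxna4 and Plxna2 were at the bottom in both groups, at 0.271 to 1.73 CPM per kb over the 6 libraries.

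**Figure D4:**
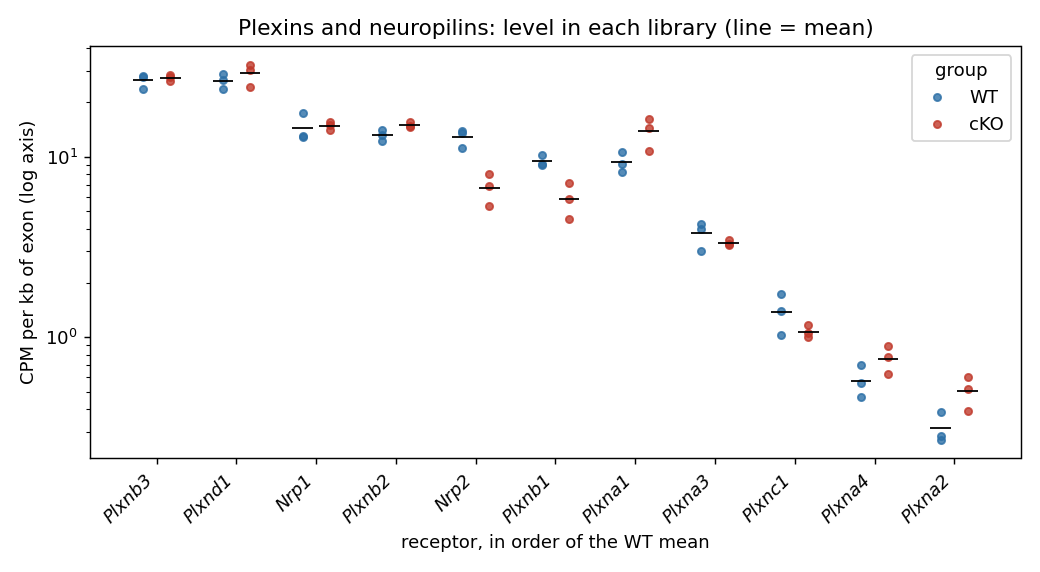
Level of each plexin and neuropilin in each library, in CPM per kb of exon on a log axis, in order of the WT mean, with WT in blue, cKO in red and lines at the group means. Nrp2 and Plxnb1 are the receptors whose cKO points all lie below their WT points; the cKO points of Plxna1, Plxna2 and Plxnb2 all lie above.

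Levels of the members shared an order within the cKO group. The library cKO 1 was the lowest of the 3 for 21 of 31 members, beside 44.0% of all genes tested, and cKO 2 was the highest for 22, beside 37.5%. The summed Schwann cell markers had the same order, 21530 CPM in cKO 1, 27440 in cKO 3 and 34100 in cKO 2, as did the summed muscle markers (5101, 6756 and 10640 CPM). Members share these libraries, so the counts are not independent.

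Proteins that work with the family were read from 4 lists, with 7 lower and 2 higher calls among 60 genes tested (11.7% and 3.33%, beside 6.17% and 4.77% of all genes). Of 15 co-receptors and alternative receptors 2 fell and 0 rose. Nrcam, a cell adhesion molecule that joins neuropilin complexes, was at 87.3, 86.9 and 94.6 CPM in WT and 30.1, 36.1 and 35.6 CPM in cKO, without overlap, and fell 2.64-fold (log2 -1.40 ± 0.10, edgeR adjusted p = 0.000192, called in all 15 alternative fits). Met, the receptor of hepatocyte growth factor and a partner of plexins B, fell 1.41-fold from 33.8 ± 2.97 to 23.9 ± 3.02 CPM (SD, n = 3), a call lost with total counts, the muscle covariate and without cKO 1, cKO 2, cKO 3 or WT 2. Of 6 other neuropilin ligands 0 were called by edgeR, limma-voom or DESeq2, and 2 were higher at an unadjusted edgeR p under 0.05. Vegfa, the main growth factor of vessels, was at 16.7 ± 2.52 CPM in WT and 22.8 ± 3.54 CPM in cKO (SD, n = 3, edgeR adjusted p = 0.114).

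Of 32 intracellular effectors 3 fell and 2 rose. Dpysl5, of the collapsin response mediator proteins that carry class 3 signals to microtubules, fell 2.41-fold, from 19.6, 24.5 and 14.4 CPM in WT to 7.81, 9.46 and 6.97 CPM in cKO (log2 -1.27 ± 0.21). Mras, a Ras-family GTPase of the kind on which plexins act, fell 2.01-fold from 183.9 ± 10.6 to 91.5 ± 19.9 CPM (SD, n = 3), and Limk2, a kinase of the actin regulator cofilin, fell 1.39-fold. With the muscle covariate none of these 3 was called (edgeR adjusted p = 0.687 for Dpysl5, 0.167 for Mras and 0.246 for Limk2, at log2 -0.84, -1.33 and -0.75), and Limk2 was not called without cKO 3 (edgeR adjusted p = 0.0547). Pak1, a kinase downstream of Rac, rose 1.61-fold from 18.0 ± 1.07 to 29.1 ± 5.83 CPM, and Fyn, a kinase used by plexins A, rose 1.25-fold. Neither higher call held throughout: Pak1 lost its call with the replicate block, with the muscle covariate and without cKO 2, cKO 3, WT 1 or WT 2, and Fyn lost its call in each fit that left out 1 library. Of 7 proteases that process semaphorins 2 fell and 0 rose. Adam10, a sheddase of membrane proteins, fell 1.67-fold, from 436.8, 455.0 and 607.7 CPM in WT to 285.4, 296.2 and 315.3 CPM in cKO (log2 -0.74 ± 0.13, edgeR adjusted p = 0.0089), without a call with the muscle covariate (log2 -0.92, edgeR adjusted p = 0.37). Pcsk5, a proprotein convertase, fell 1.40-fold from 44.3 ± 5.79 to 31.7 ± 2.51 CPM, a call lost with total counts, the muscle covariate and without cKO 1, cKO 2 or cKO 3.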

How the data were processed

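RNA of 6 sciatic nerve libraries, 3 cKO and 3 WT, was analysed. The deposited files hold raw counts per gene symbol, made by the authors with TopHat2 version 2.0.13 and HTSeq (no version) on mm10, per the submitters' processing notes. The gene annotation and strand setting were not given in the sources used here, so antisense and overlapping genes cannot be told apart. Of the members, Plxna1 shares 10.7%, Sema4c 7.27%, Plxnb1 2.68% and Plxna4 0.78% of their exon bases with an antisense transcript in GENCODE M21, and 3 others share at most 1.38% with a transcript of the same strand. The 5 closing lines of each file entered neither library sizes nor tests; unassigned reads made up 12.07% to 14.26% of a file's counts and ambiguous reads 1.635% to 2.818%.

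The comparison used edgeR 4.0.16 (R 4.3.3): filterByExpr with a minimum count of 10, TMM factors, the quasi-likelihood F test on all 6 libraries with group as the only term, and Benjamini-Hochberg adjustment over 14789 genes, called under 0.05. The SE is the log2 fold change over the square root of F. Positions and exon lengths (union of exons, which may differ from the authors' gene models) came from GENCODE M21 on GRCm38 by symbol, found for all 31 members. Promoter windows of 250 bases were matched by symbol for 26 members. Alternatives were DESeq2 size factors, upper-quartile factors, total counts, 2 other filters, DESeq2 1.42.0, limma-voom (limma 3.58.1), a replicate block, the mean log2 CPM of the muscle markers as a covariate, and leaving out each library. Each p-value weighs the difference between the groups against the spread between libraries, estimated with information shared over genes.

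Members, gene lists and alternatives were chosen with earlier results of these data known. All members may be named, as may called genes of the 4 partner lists (at most 4 in each direction), up to 3 of each marker list by mean level, and Yap1 and Wwtr1. Itgb1, Vegfa, Sox10, Xist and Ddx3y were chosen outside that rule, after their values were seen, as were the pairs of genes whose ratios are given. By edgeR, the other marker lists gave 0 calls of 10 macrophage, 6 adipocyte and 7 neuron genes tested (3, 0 and 1 higher at an unadjusted p under 0.05, and 0, 1 and 0 called by DESeq2), 1 higher of 10 fibroblast and of 8 mural cell genes, 1 lower of 8 perineurial genes and 3 higher of 7 lymphocyte genes. On counts simulated for this comparison with 14777 genes tested, changes of log2 0.5, 1 and 2 were called in 23.08%, 62.12% and 96.88% of cases. Of 14582 unchanged genes 7 were called. Only 65, 66 and 64 genes were changed by these sizes, with signs drawn at random. The data gave 1618 calls and large shifts of whole marker lists, so these rates may not hold for them.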

Additional observations from a re-analysis of the deposited data

How the results depend on the processing

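Of the 31 members, the direction and side of the threshold were the same for 20 (muscle covariate) to 30 members under each alternative. All genes gave 1618 calls, 706 higher and 912 lower. With total counts they gave 1273 higher and 606 lower, as the median of all genes moved by 0.124 on the log2 scale. With the muscle covariate they gave 35 calls, 5 higher and 30 lower, and the members gave 1, 0 higher and 1 lower. Most calls of all genes were lost in that fit, not those of members alone. The muscle level nearly follows the groups, and the cause of the loss was not tested. The single higher member became 2 with DESeq2 size factors, upper-quartile factors, no filter or at least 50 counts in 3 libraries, and 4 with total counts or DESeq2. DESeq2 called 2254 genes in all. The partner lists' 2 higher calls became 1 with DESeq2 size factors or no filter, 4 with upper-quartile factors or DESeq2, 10 with total counts and 0 with the muscle covariate, where 1 was lower. Wwtr1 lost its call with the muscle covariate at a log2 value of 0.57.

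Leaving out 1 library gave 735 (without cKO 3) to 2195 (without WT 3) called genes, with 276 to 1075 higher and 459 to 1120 lower, 4 to 9 called members with 0 to 2 higher and 4 to 7 lower, 0 to 3 higher and 4 to 7 lower partner genes, and log2 values of Wwtr1 from 0.334 to 0.445. Without cKO 3 the members gave 4 calls. Signs of members that were not called turned for Sema6a (0.019 with upper-quartile factors, 0.115 with total counts, -0.077 to 0.068 over the fits that left out 1 library), Sema3d (0.059 with total counts, 0.03 with limma-voom, 0.008 with the replicate block, -0.31 to 0.36 with 1 library left out), Sema4f (-0.296 to 1.014), Nrp1 (-0.07 to 0.171) and Plxnb3 (-0.046 to 0.09) with 1 library left out, and, with the muscle covariate, Plxna4 (-0.294), Plxnb2 (-0.049), Plxnd1 (-0.096) and Nrp1 (-0.137). The cause of these changes was not tested.

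The labels number the libraries 1 to 3 in each group. Deviations of same-numbered libraries correlated at -0.207, -0.122 and 0.072 over genes, and those of different-numbered libraries at -0.1 to 0.222. A pairing by number was thus not seen, though 3 libraries per group cannot exclude one. With the number as a replicate block 461 genes were higher and 1104 were called in all, the members gave the same 8 calls, 0 partner genes were higher and Wwtr1 was at 0.40 without a call. The fewest reads were those of Sema4f, at most 25 in a library, which limits the precision of its value (SE 0.69).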
